A study of Mus musculus with 6 samples.

Results

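The sequences described here are the 192 members of the R4 library that carry A, G or T in place of C at position 10 of a Gli binding site. They are defined by sequence alone, out of 508 in the block headed R4-R5 that was measured in the R4-R6 reaction. This definition was chosen with earlier results of these data known. Each listed sequence gives positions 10 to 16 of the site, where position 1 is the first base listed in another deposited table, of 16-base sequences. Members vary freely at positions 11 to 13 and keep the most frequent bases, G, A and A, at positions 14 to 16. There are 64 members for each first base, and 64 further R4 sequences carry C there. The design is thus a full crossing of 3 first bases with 4 bases at each of 3 positions, and all 192 members had at least 10 reads in each fraction.

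Recombinant mouse Gli protein, called Gli1 in the sample titles, was mixed in vitro with double-stranded DNA libraries, and bound and unbound DNA were cut from a gel. The R4-R6 reaction has 1 bound and 1 unbound sample and was not repeated. The characteristics of both samples name CTCF libraries, unmethylated and M.SssI treated. The titles and the headings of the table name Gli and R4 to R6 instead, and these were followed here. No heading gives a methylation state for the R4-R5 block, and the labels do not say which part of the protein was used.

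Gli proteins are the zinc finger transcription factors that carry the Hedgehog signal to its target genes. Their tandem zinc fingers lie along the major groove, and the core of the site is a C-rich stretch like that at positions 1 to 9 below. Positions 10 to 16 lie next to this core. Binding is read as the ratio of bound to unbound reads, so a higher ratio means tighter relative binding within the reaction.

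The first sequence below places the members in the site. It holds the most frequent base at each position of the 16-base table, with the 4 varied positions, 10 to 13, in capitals. The 9 bases before position 10 are listed in that table only, and the R4-R5 block gives no bases before position 10. The others are the 3 strongest and the 3 weakest members for each first base, again with positions 10 to 13 in capitals.
Most frequent bases of the 16-base table: gaccacccaAGATgaa
Strongest with A: AGACgaa
Next strongest with A: AGTAgaa
Next after it with A: AGATgaa
Weakest with A: AAAGgaa
Next weakest with A: ATCGgaa
Next above it with A: AAGGgaa
Strongest with G: GGGCgaa
Next strongest with G: GGTTgaa
Next after it with G: GGACgaa
Weakest with G: GCCCgaa
Next weakest with G: GCCGgaa
Next above it with G: GTCCgaa
Strongest with T: TGTTgaa
Next strongest with T: TGGAgaa
Next after it with T: TGACgaa
Weakest with T: TTCCgaa
Next weakest with T: TCCGgaa
Next above it with T: TTCGgaa

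All 9 of the strongest sequences have G at position 11, and all 9 of the weakest have C at position 12 or G at position 13. Members differ in binding over a 56.8-fold range. AGACgaa was highest, with 2508 bound and 546 unbound reads and a ratio of 4.59. AAAGgaa was lowest, with 41 bound and 513 unbound reads and a ratio of 0.0808. Ratios carry a pseudocount of 0.5 on each count, and log ratios are natural logs.

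The members held 130343 bound and 210785 unbound reads, of 341388 and 523242 in the block. Counts per member ran from 39 to 3430 bound and from 197 to 8402 unbound. The counting standard error (SE) of a log ratio, the square root of the summed reciprocal counts, was 0.02 to 0.17, with a median of 0.06. The reads were amplified by PCR and carry no molecular identifiers, so several can stem from the same molecule and every SE covers counting error only. With 1 library per fraction there is no replicate check and no p-value. A difference was called when it reached 1.5-fold and passed 2 counting SE. An SD below is the spread over sequences of the same 2 libraries, which are not replicates.

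The median ratio was close among the 3 first bases, while the spread around it differed. It was 0.405 for A, 0.504 for G and 0.459 for T, against 1.80 for the 64 sequences with C. Mean log ratios were -0.84 ± 1.10 (SD, n = 64) for A, -0.67 ± 0.74 for G and -0.75 ± 0.87 for T. All 3 means lie below the 0.45 ± 0.84 of C. Sequences with A spanned 56.8-fold, those with T 22.3-fold and those with G 17.6-fold, and the 3 sets overlapped over most of their range. More bound than unbound reads were found for 15 members with A, 14 with G and 12 with T, against 43 with C. No depth scaling was applied, so a ratio of 1 need not mean equal amounts of bound and unbound DNA. Here and below it serves only as a cut for counting.

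At the same bases at positions 11 to 13, A, G and T each bound less than C. The median difference in log ratio was -1.29 ± 0.52 (SD, n = 64) for A, -1.17 ± 0.39 for G and -1.20 ± 0.34 for T. These are 3.64-fold, 3.23-fold and 3.32-fold lower ratios. The difference was called in 64 of 64 sequences with A, 63 with G and 63 with T, all lower. In the whole block 51.0% of single-base pairs were called in either direction.

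The median loss on replacing C was largest where the new first base matched position 11. For A it was 6.74-fold before A, against 1.97-fold before G. For G it was 4.02-fold before G, and for T 3.68-fold before T. These last 2 lay within the spread of the next largest, 3.93-fold for G before A and 3.47-fold for T before G. For A, AAATgaa lay 14.2-fold below CAATgaa and AAACgaa lay 12.6-fold below CAACgaa. The next was AATTgaa at 11.7-fold. For T, the largest were TTTTgaa at 8.44-fold, TTTAgaa at 7.09-fold and TTTCgaa at 6.64-fold below their partners with C. For G, GATTgaa lay 6.47-fold, GGATgaa 5.94-fold and GGTGgaa 5.19-fold below their partners with C. The smallest loss for A was 1.54-fold, in AGACgaa, whose ratio of 4.59 stands against 7.08 for CGACgaa. The next were AGGAgaa at 1.59-fold and AGGCgaa at 1.61-fold. The members with T nearest to C were TACAgaa at 1.499-fold, just under the call, TACCgaa at 1.58-fold and TGGTgaa at 1.60-fold.

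GAAGgaa was the exception among the 192 comparisons with C. It had 498 bound and 820 unbound reads, a ratio of 0.608, and lay above CAAGgaa, at 0.429, by 0.35 ± 0.09 (counting SE). No other member was above its partner with C. The next smallest losses with G were GTCGgaa at 1.56-fold and GGGCgaa at 1.59-fold.

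Set against each other, the 3 first bases had small median differences that hid larger differences of both signs. A was 1.28-fold below G, at -0.25 ± 0.57 (SD, n = 64). Against T it lay at -0.05 ± 0.56, and G lay at 0.02 ± 0.42 against T. Each SD is several times the median counting SE of a difference, 0.07 to 0.09. A against G was called in 30 of 64 sets, with A higher in 12 and lower in 18. A against T was also called in 30, with 12 higher and 18 lower, and G against T in 22, with G higher in 16 and lower in 6. These shares, 46.9%, 46.9% and 34.4%, lie below the 51.0% of all single-base pairs in the block. Differences within 2 counting SE numbered 16, 23 and 21 of 64, so the first bases of those sets could not be ordered at this depth.

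In several of these pairs the sign of the difference depended on the base at position 11. With A at position 11, A as first base lay below T in 16 of 16 sets, by a median 2.43-fold, and all 16 were called. It also lay below G in 16 of 16, by 1.62-fold, with 9 called. With G at position 11 the order turned. A then lay above G in 15 of 16 sets, by a median 1.71-fold, and above T in 15 of 16, by 1.56-fold, with 12 and 9 called. With T at position 11, G lay above T in 13 of 16 sets, by 1.77-fold, with 12 called, and above A in 16 of 16, by 1.62-fold. A and T had no common order there, with A higher in 7 of 16 and a median difference of -0.10. G lay below T in 13 of 16 sets with A at position 11, by 1.41-fold with 5 called lower and 1 higher. With G at position 11 it lay below T in 11 of 16, by 1.18-fold with 1 called. With C at position 11 the medians were 1.09-fold between A and G, 1.003-fold between A and T and 1.21-fold between G and T.

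Counted by set, the strongest first base was A in 14 of 16 with G at position 11. It was T in 13 of 16 with A there, G in 13 of 16 with T there and G in 9 of 16 with C there. The lead over the next base passed 2 counting SE in 12, 10, 11 and 4 of these.

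The sequences ending in ACgaa show the turn in the reads. With A at position 11, AAACgaa had 64 bound and 347 unbound reads and TAACgaa 462 and 662, ratios of 0.186 and 0.698. With G at position 11, AGACgaa had a ratio of 4.59 and TGACgaa, with 1051 and 499 reads, 2.11. A is thus 3.76-fold below T in the first pair and 2.18-fold above it in the second. The other largest differences between A and T were AACTgaa, 3.51-fold below TACTgaa, and also AAATgaa, 2.96-fold below TAATgaa. In the other direction AGTGgaa and AGAGgaa each lay 2.59-fold above their partners with T.

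Between A and G the extremes followed the same split. AAAGgaa lay 7.52-fold below GAAGgaa, while AAAAgaa lay 3.14-fold below GAAAgaa and AAATgaa 3.09-fold below GAATgaa. In the other direction AGATgaa lay 2.995-fold above GGATgaa, while AGACgaa lay 2.64-fold above GGACgaa and AGTGgaa 2.46-fold above GGTGgaa. Between G and T the largest were GAAGgaa at 4.15-fold, GTTTgaa at 2.20-fold and GTCAgaa at 2.15-fold above T. The reverse held for GACCgaa at 2.58-fold, GACAgaa at 2.10-fold and GACTgaa at 1.72-fold below T, all 3 with A and C at positions 11 and 12.

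The base at position 11 carried the largest share of the differences among members. With G at position 11 the log ratio averaged 0.22 ± 0.74 (SD, n = 48). The averages were -0.96 ± 0.80 with C, -1.12 ± 0.65 with A and -1.16 ± 0.69 with T. With all other bases alike, G lay above A by a median 3.24-fold, above C by 3.19-fold and above T by 3.42-fold. These differences were called in 46, 46 and 45 of 48 sequences, all with G higher. Over all single-base pairs of members at position 11, 70.1% were called in either direction, against 51.0% in the block. G at position 11 was present in 30 of the 41 members with more bound than unbound reads, and in all of the strongest 24. The other 11 of the 41 had C in 7, A in 2 and T in 2.

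The size of the preference for G at position 11 depended on the first base. Its mean log ratio lay above that of the other bases by 1.86 with A as first base, 1.15 with T and 0.88 with G. These are 6.41-fold, 3.16-fold and 2.42-fold. Members beginning AG had a median ratio of 2.24, those beginning TG 1.84 and those beginning GG 1.34. Members beginning AA had the lowest median, 0.179, followed by TT with 0.206 and AT with 0.275. None of the 16 members beginning AA had a ratio above 1, and the same holds for the 16 each beginning AT, GA and TT.

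C at position 12 and G at position 13 went with low ratios whatever the first base. The log ratio averaged -1.47 ± 0.66 (SD, n = 48) with C at position 12 and -0.58 to -0.45 with the other bases. It lay below A by a median 2.58-fold, below G by 2.79-fold and below T by 2.40-fold, called lower in 38, 37 and 40 of 48 sequences. A single sequence pair was called in the other direction, against A. Over all single-base pairs of members at position 12, 62.2% were called in either direction, against 51.0% in the block. The mean with C at position 12 lay 2.71-fold below that of other bases with A as first base, 2.66-fold with G and 2.37-fold with T.

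With G at position 13 the log ratio averaged -1.38 ± 0.68 (SD, n = 48), and with the other bases -0.59 to -0.49. It lay below A by a median 2.18-fold, below C by 2.41-fold and below T by 2.18-fold, with 39, 35 and 35 of 48 called lower and 1 called higher, against C. Over all single-base pairs of members at position 13, 47.2% were called in either direction, against 51.0% in the block. By first base the mean with G at position 13 lay 2.34-fold, 2.01-fold and 2.63-fold below other bases for A, G and T. A, C and T at position 13 differed little in the median. The median difference was 0.17 ± 0.29 between C and T, 0.02 ± 0.24 between A and T and -0.06 ± 0.40 between A and C. Of 48 sequences, C was called above T in 7 and below it in 2. A was called above T in 1 and below it in 3, and above C in 5 and below it in 8. G at position 13 stands beside the fixed G at position 14. C at position 13 makes a CpG with the fixed G at position 14, and its mean of -0.49 ± 0.95 was the highest at that position. Among the weakest 24 members, 17 had C at position 12 and 12 had G at position 13, and 23 had at least 1 of these.

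The 3 positions were also read together. All 27 members with G at position 11 and neither C at position 12 nor G at position 13 had more bound than unbound reads. With G at position 11 and C at position 12, the highest ratio was 1.1998 for AGCAgaa and the lowest was that of GGCCgaa, with 352 and 964 reads and 0.365.

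The sequence with the most frequent bases, AGATgaa, is itself a member, with 3292 bound and 898 unbound reads and a ratio of 3.66. Of the other 191 members, 186 were called lower and none higher. In the whole block 93.7% were called lower and 1.18% higher, so these counts are near the background. AGACgaa alone lay above it by more than 2 counting SE, at 0.23 on the log scale. AGTAgaa at 0.01, AGTTgaa at -0.09 and AGAAgaa at -0.08 lay within 2 counting SE of it. All 4 begin with AG, and no member with G or T first came within 2 counting SE of AGATgaa.

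Among its single-base variants, those at position 11 had the lowest ratios. Here a substitution gives the base of AGATgaa, the position and the new base. G11A, with 76 bound and 569 unbound reads, lay 27.3-fold lower, G11T 11.3-fold and G11C 4.72-fold. At position 12, A12C lay 4.52-fold and A12G 2.002-fold lower, while A12T was at -0.09 ± 0.06 (counting SE). At position 13, T13G lay 3.26-fold lower, T13A was at -0.08 ± 0.06 and T13C higher, at 0.23 ± 0.06. At position 10, A10G lay 2.995-fold and A10T 1.75-fold lower, and A10C, which is no member, 1.98-fold higher. The members beginning AGA also belong to the R5 library, so their reads may come from both. Their unbound counts were 898 for AGATgaa, 546 for AGACgaa, 479 for AGAAgaa and 2115 for AGAGgaa, within the range of other members. That range, 197 to 8402, is too wide to show whether reads came from both libraries, which was not tested.

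Single bases accounted for 75.7 ± 0.5% (counting SE) of the variance of the log ratio among members. Position 11 held 38.6%, position 12 20.5%, position 13 16.01% and position 10 0.585%. The share of position 10 covers A, G and T only, because the choice of members leaves out C there. The residual SD was 0.45, which is 6.38 times the counting SE, so the remainder is larger than counting error. Pairs of positions added 20.0 ± 0.5%, terms beyond pairs 4.29 ± 0.22%, and counting error alone amounts to 0.598%.

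Neighbouring positions held most of the pair terms. Positions 10 and 11 added 6.84 ± 0.28% (counting SE), positions 11 and 12 added 6.02 ± 0.29% and positions 12 and 13 added 5.69 ± 0.29%. Pairs that are not neighbours added little. Positions 10 and 12 gave 0.275 ± 0.056%, positions 10 and 13 gave 0.347 ± 0.059% and positions 11 and 13 gave 0.878 ± 0.104%. Within each first base, the pair 11 and 12 held 7.26% with A, 6.01% with G and 10.8% with T. The pair 12 and 13 held 4.42%, 10.1% and 5.82%, and the pair 11 and 13 held 1.52% or less.

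Members with the same base at neighbouring positions bound less than the sum of their single bases. At positions 10 and 11, AA lay at -0.41 ± 0.45 (SD, n = 16) from the sum on the log scale, the lowest of that pair, and AG at 0.42 ± 0.47 was the highest. At positions 11 and 12, TT was lowest, at -0.37 ± 0.34 (n = 12), and AC highest, at 0.32 ± 0.48. At positions 12 and 13, GG was lowest, at -0.45 ± 0.30, and CG highest, at 0.46 ± 0.27. Counting SEs of these means were 0.01 to 0.03, while the SD over sequences is close to the size of the means.

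All 11 pairs of identical neighbours lay below 0, from -0.45 to -0.02 with a median of -0.31. Of the 33 pairs of unlike neighbours, 10 lay below 0, and their median was 0.07. TT at positions 12 and 13, at -0.02 ± 0.46, and AA there, at -0.08 ± 0.39, were the nearest to 0. Between positions that are not neighbours, 5 of 10 identical pairs and 16 of 30 unlike pairs lay below 0. At positions 10 and 12 the lowest and highest were T at both with -0.08 and A and T with 0.10. At positions 10 and 13 they were T and G with -0.10 and G at both with 0.10, and at positions 11 and 13 C and A with -0.12 and C and T with 0.11.

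The departure from the single-base sum was lower the more identical neighbours a member had at positions 10 to 13, a count chosen after the pair values were seen. It averaged 0.26 ± 0.38 (SD, n = 81) with none, -0.06 ± 0.33 (n = 81) with 1, -0.49 ± 0.35 (n = 27) with 2 and -0.96 ± 0.02 (n = 3) with 3. The 3 members with a single repeated base are shown because they hold 3 identical neighbours each.
Only A at positions 10 to 13: AAAAgaa
Only G at positions 10 to 13: GGGGgaa
Only T at positions 10 to 13: TTTTgaa
All 3 had low ratios. For AAAAgaa there were 55 bound and 323 unbound reads, a ratio of 0.172. The reads of TTTTgaa were 467 and 2735, a ratio of 0.171, against 0.376 for GTTTgaa and 0.254 for ATTTgaa. The reads of GGGGgaa were 3200 and 8402, a ratio of 0.381, and its unbound count was the highest of all members. AGGGgaa, at 0.406, and TGGGgaa, at 0.374, were close to it.

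The pair of positions 12 and 13 showed how the low ratios of C and G combined. C at position 12 followed by G at position 13 had a median ratio of 0.157 (n = 12), and C followed by C had 0.159. C followed by A or T had 0.195 and 0.212. G at position 13 after another base had medians of 0.183 after G, 0.238 after A and 0.252 after T. C followed by G was thus not much lower than C alone, although each base goes with low ratios. The medians with C at position 12 lie toward the low end of the member ratios, which begin at 0.0808. Whether a lower limit to the ratios plays a part here was not tested. G at position 12 followed by C had the highest median of this pair, 1.14.

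GAAGgaa stood apart from the pattern of single bases and pairs. Its ratio of 0.608 lay 3.16-fold above the 0.192 fitted from them, a log difference of 1.15 against a counting SE of 0.06. The other 191 members lay within 0.5 of their fitted log ratio. The nearest were AAACgaa, 1.65-fold below its fitted value, and GAAAgaa, 1.56-fold above. Its single-base neighbours at position 10 had 0.0808 for AAAGgaa, 0.147 for TAAGgaa and 0.429 for CAAGgaa. Those at position 11 had 0.241 for GCAGgaa, 0.365 for GTAGgaa and 0.478 for GGAGgaa. Those at position 12 had 0.171 for GAGGgaa, 0.173 for GACGgaa and 0.282 for GATGgaa. Those that differ at position 13 had 0.538 for GAAAgaa, 0.483 for GAACgaa and 0.415 for GAATgaa. The ratio of GAAGgaa was thus above that of all its single-base neighbours, but its lead over GAAAgaa was within 2 counting SE.

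The number of G and C at positions 11 to 13 had no steady relation to binding among members. Mean log ratios were -0.93 ± 0.47 (SD, n = 24) with none, -0.70 ± 0.90 (n = 72) with 1, -0.70 ± 1.02 (n = 72) with 2 and -0.92 ± 0.97 (n = 24) with 3. Members with 1 CpG at positions 11 to 14 were close to those without. The 123 members without CpG had a mean of -0.78 ± 0.88, and the 66 with 1 CpG -0.75 ± 0.97. The 3 members with 2 CpG were higher, at 0.13 ± 0.30. They are ACGCgaa at 1.43, GCGCgaa at 1.27 and TCGCgaa at 0.805, which share the same bases at positions 11 to 13. All 3 have G at position 12 followed by C, the pair with the highest median at positions 12 and 13, 1.14. The number of CpG cannot be told apart from these bases here, and its effect was not tested.

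The order of the 64 base sets at positions 11 to 13 was largely shared among first bases. Across sets, members with A and G had r = 0.882 and rho = 0.872, those with A and T r = 0.864 and rho = 0.836, and those with G and T r = 0.874 and rho = 0.870. These values describe sequences of the same 2 libraries, with no p. The slope of the log ratio on that of the sequences with C was 1.16 for A, 0.95 for T and 0.78 for G. The range over positions 11 to 13 was thus widest with A and narrowest with G.

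In the 16-base table, which names no reaction, the same 192 members had another order. There the ratios ran from 18.3 to 112, with r = 0.214 and rho = 0.204 against the R4-R6 reaction across members. By first base r was 0.319 for A, 0.157 for G and 0.137 for T. The unbound reads behind these ratios numbered 13508 over the members, and the median counting SE was 0.13. GGGCgaa was the highest there, with 9723 bound and 86 unbound reads and a ratio of 112, and GGGGgaa second with 93.5. Mean log ratios were 3.47 ± 0.26 (SD, n = 64) for A, 3.87 ± 0.31 for G and 3.57 ± 0.26 for T. The 64 sequences with C had 3.98 ± 0.35 there. The mean for G was thus within the spread of C in that table, against -0.67 for G and 0.45 for C in the R4-R6 reaction.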

How the data were processed

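Bound and unbound DNA of the R4-R6 reaction were recovered from gels and amplified by at least 8 PCR cycles, per the labels' protocols. The authors deposited whole-number read counts per sequence for each fraction, and the ratio of bound to unbound counts, per the file headers. For the software and filters behind the counts, nothing is given in the labels or headers used here. No depth scaling was applied, and a common scaling would shift all log ratios alike.

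Log ratios, counting SEs and calls were computed as described above, with at least 10 reads in each fraction. Variance shares came from unweighted least squares on the base at positions 10 to 13, then with each pair of positions added. Their SEs propagate counting error to first order. The calculations were checked on simulated data. Members, lists and tests were chosen with earlier results of these data known. Named sequences were the 3 strongest and 3 weakest per first base, AGATgaa and its single-base variants, the 3 largest differences in each direction per pair of first bases, the extreme pairs of bases and the members shared with R5. GAAGgaa, the repeated-base members and the other members used as examples were added after their values were seen. Pseudocount, count minimum, call rule, shared members and weighting were varied. Python 3.11.15, numpy 2.4.6 and pandas 2.3.3 were used.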

Additional observations from a re-analysis of the deposited data

How the results depend on the processing

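Of 243 values recomputed under other settings, 219 stayed within the 95% counting interval of the reported value or, for counts, within 1.5 times, and no called value changed sign. Some of the 219 could not change. All members passed the count minimum, so leaving it out altered nothing. The members shared with R5 all begin with A, so leaving them out could not alter the values of members with G or T first. The other 24 values follow. With at least 50 reads in each fraction, A minus T was -0.0198, G at position 11 over other bases with A first 1.81, and the share of positions 11 and 13 1.13%. Without the members shared with R5, A minus G was -0.31 and A minus T -0.0939. G at position 11 with A first was then 1.70 and C at position 12 with A first -0.85. The shares were 6.22% for positions 10 and 11, 0.777% for 10 and 12 and 6.89% for 11 and 12. A lower fold for a call gave 34 sets for G against T and 1 member above AGATgaa. A 2-fold call gave 15 sets for A against G, 14 for A against T and 6 for G against T. Weighted fits gave 74.3% for single bases, 0.418% for positions 10 and 12, 0.123% for 10 and 13, 7.25% for 11 and 12 and 6.56% for 12 and 13. Means in place of medians gave -0.17 for A minus G, -0.10 for A minus T, 0.0750 for G minus T and -1.12 for G minus C. The cause of these shifts was not tested, beyond the fewer sequences or the altered call rule of the setting. No paired analysis was possible because the results come from no test and each fraction has 1 library. Depth limits the weakest members most, with a counting SE up to 0.17.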

Other observations

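The lower binding of identical neighbours was also looked for in other sequences, after it had been seen in the members. In the 64 R4 sequences with C first, the departure from single bases at positions 11 to 13 averaged 0.17 ± 0.25 (SD, n = 36) without identical neighbours and -0.22 ± 0.33 (n = 28) with them. In the R6 block of the same reaction, which lists 3 varied bases, it was 0.19 ± 0.25 (n = 36) and -0.24 ± 0.32 (n = 28). In the R5 library, over positions 13 to 16, it was 0.17 ± 0.26 (n = 108) and -0.12 ± 0.40 (n = 148). The members gave 0.26 ± 0.38 (n = 81) and -0.19 ± 0.40 (n = 111) over positions 10 to 13. In the 16-base table the same members gave 0.00 ± 0.16 and 0.00 ± 0.14. The pattern was thus not seen in the means of that table, over 81 and 111 sequences. Ratios there were 18.3 or higher, and the median counting SE of a single sequence was 0.13. All sets but the last share the 2 libraries of the R4-R6 reaction, and the cause of the pattern was not tested.

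GAAGgaa had a ratio of 36.5 in the 16-base table, from 3776 bound and 103 unbound reads. GAATgaa had 28.7, GAACgaa 26.3 and GAAAgaa 21.2. The lead over GAATgaa is within 2 counting SE, whose values are 0.10 and 0.12 for the 2 sequences.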
